A study of Mus musculus with 40 samples.

Results

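Genes of the nuclear envelope and of the nuclear pore complex were followed in mouse embryonic stem (mES) cells and epiblast-like cells (EpiLCs) that lacked LBR, the lamins or both. The set was a list of 42 genes named for their place in the envelope or the pore, out of 56748 genes in the count table. No rule on measured values picked them, but they were chosen with earlier results of these data known. It held 15 envelope genes and 27 pore genes, and the 4 targeted genes (*Lbr*, *Lmna*, *Lmnb1* and *Lmnb2*) were left out of it. The comparisons asked whether RNA of the other envelope and pore genes changed when these proteins were missing, and when naive cells became primed. Total RNA was sequenced from 40 libraries in 8 groups. At each stage there were 8 libraries of wild type (WT) cells and 4 each of cells with *Lbr* disrupted by indels (LBRKO), of cells deleted for *Lmna*, *Lmnb1* and *Lmnb2* (TKO) and of TKO cells with *Lbr* disrupted as well (QKO). The mES cells grew without serum or feeders in N2B27 medium with CHIR-99021, PD0325901 and LIF. EpiLCs were derived by changing N2B27 cultures to FGF (20 ng/mL) plus Activin A (12 ng/mL), and both kinds of culture were collected at 48 h. TKO and WT lines came from littermates, and QKO was a single clone made from TKO in which 1 *Lbr* allele carries an in-frame deletion. Several LBRKO clones were made from WT, and the sources used here do not say which, or how many, gave these libraries. The p-values measure spread between cultures of these lines and not between independently derived lines.

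The nuclear envelope is a double membrane in which proteins of the inner membrane hold chromatin and the lamin meshwork. LEM-domain proteins bind chromatin through BAF, and the SUN and nesprin proteins of the LINC complex join the inner membrane to the cytoskeleton. Nuclear pore complexes span both membranes and carry traffic between nucleus and cytoplasm. They are built from outer rings (the Y complex), an inner ring, a central channel, filaments on the cytoplasmic face, a basket on the nuclear face and membrane proteins that anchor the pore.

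Counts assigned to genes ran from 22.6 to 48.9 M per library. *Lmnb1* was at 481 to 546 CPM in WT mES cells and at 8.26 to 8.82 CPM in TKO and 12.0 to 15.5 CPM in QKO mES cells, where CPM is a count relative to its library size after TMM scaling. *Lmnb2* was at 93.2 to 116 CPM in WT, 3.96 to 4.71 CPM in TKO and 2.11 to 3.77 CPM in QKO mES cells, and *Lmna* at 45.1 to 71.5, 14.1 to 17.0 and 17.1 to 21.0 CPM. *Lbr* RNA, which indels need not remove, was at 347 to 407 CPM in WT and 145 to 274 CPM in LBRKO mES cells. Summed naive markers (6 genes, among them *Klf4* and *Zfp42*) were at 3430 to 4855 CPM in mES cells and at 104 to 295 CPM in EpiLCs. WT replicates 1 to 4 and 5 to 8 stood apart from each other, and the labels name no batch. The mean correlation of deviations was -0.32 across and 0.10 within the sets in mES cells, and -0.24 across and -0.01 within them in EpiLCs. Deviations were taken from the mean of all 8 libraries, which by itself draws such correlations below 0. Depth split the same way. Over both stages WT replicates 1 to 4 held 25.4 to 33.5 M counts, TKO 22.6 to 33.6 M and QKO 24.5 to 33.0 M. WT replicates 5 to 8 held 39.4 to 48.9 M and LBRKO 39.7 to 48.1 M. This split runs with genotype and cannot be told apart from it in contrasts that set LBRKO beside TKO or QKO. It also enters each comparison with all WT libraries. With WT replicates 1 to 4 as the only WT control 5 of the set's 30 calls in QKO EpiLCs were lost, and with WT replicates 5 to 8 only 7 of the 24 in QKO mES cells were.

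Of the 42 genes, 41 passed the filter on low counts. *Nup58*, a channel nucleoporin on chromosome 14 (60422061 to 60488880, minus strand, GRCm39), did not, with 0 to 6 counts per library. The gene model *Gm49336* overlaps it on the same strand and held 111643 counts in all. In the other deposited table of gene counts, which also counts reads with several alignments, *Nup58* had 676 to 1862 counts per library. By that table *Nup58* was at 29.7 ± 1.24 CPM in WT mES cells (SD, n = 8) and 35.3 ± 1.01 CPM in WT EpiLCs (SD, n = 8). It rose between the stages (log2 fold change 0.24 ± 0.05 SE, adjusted p = 5.24e-05 from edgeR). In QKO EpiLCs its difference from WT was 0.05 ± 0.06 and did not pass (adjusted p = 0.534). For the 41 tested genes, the main table held 85.1% or more of the counts of the other table, with *Tor1aip1* lowest.

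Levels per length of exon ranged widely in WT mES cells. *Banf1*, which encodes the DNA-bridging protein BAF, was highest at 152 ± 8.31 CPM per kb (SD, n = 8), and *Nup62*, of the central channel, followed at 113 ± 10.1 CPM per kb. The 8 outer ring genes lay between 15.3 ± 1.31 CPM per kb (*Nup37*) and 45.1 ± 1.603 CPM per kb (*Seh1l*). Within this class *Nup107* (44.0 ± 1.07) and *Seh1l* did not differ beyond their spread, nor did *Nup85* (34.5 ± 2.43), *Nup43* (34.4 ± 2.64) and *Nup133* (33.5 ± 0.988). Nesprin genes were lowest per length, with *Syne2* at 2.93 ± 0.794, *Syne3* at 0.379 ± 0.0566 and *Syne1* at 0.184 ± 0.0315 CPM per kb. The length was that of all annotated exons (40491 bp for *Syne1* and 26726 bp for *Syne2*), whichever forms were expressed, so these ranks depend on it. Without division by length, *Syne2* was at 78.2, *Syne1* at 7.44 and *Syne3* at 2.1 CPM.

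**Figure D1:**
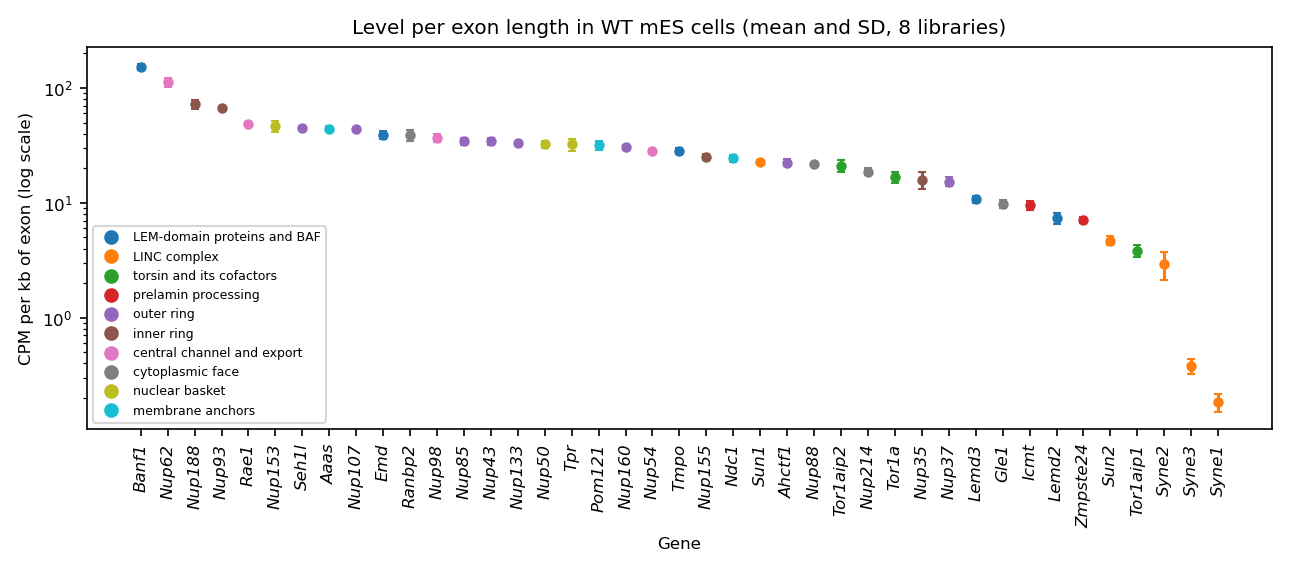
Level of 41 envelope and pore genes in WT mES cells, as mean CPM per kb of exon with SD over 8 libraries on a log axis, coloured by class. Levels run from 152 CPM per kb for *Banf1* to 0.18 CPM per kb for *Syne1*, and the 3 lowest genes are nesprin genes.

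In mutants against WT, calls within the set were fewest in TKO EpiLCs and most in QKO EpiLCs. A gene was called when its Benjamini-Hochberg adjusted p from edgeR over all 23399 tested genes was under 0.05, and errors of log2 fold changes are SE throughout. In LBRKO mES cells 4 of 41 genes were higher and 4 lower, against 12.7% and 11.2% of all genes tested, and without WT replicate 1 or any 1 LBRKO replicate 2 were higher. In TKO mES cells 5 were higher and 4 lower (all genes 8.09% and 13.2%), and in QKO mES cells 9 and 15 (21% and 23.5%). In LBRKO EpiLCs 3 were higher and 11 lower (11% and 14.2%), and without LBRKO replicate 3 the lower genes were 7. In TKO EpiLCs 5 were lower (10%) and 0 higher by edgeR (4.63%), where 2 were higher at an unadjusted p under 0.05 and 3 by DESeq2. Without TKO replicate 1 or without WT replicate 5 only 1 gene was lower there, all 5 calls were lost with WT replicates 1 to 4 as the control, and 9 were lower with WT replicates 5 to 8. In QKO EpiLCs 8 were higher (19.5% of the genes tested, against 24.3% of all genes) and 22 lower (53.7%, against 30.5%). Among the 9803 genes over 8 CPM, 50.2% were lower in QKO EpiLCs, and the median of the set (-0.15) was near that of those genes (-0.19). In either direction, 32.3%, 28.8% and 53.9% of those genes were called in LBRKO, TKO and QKO mES cells. In LBRKO, TKO and QKO EpiLCs 37.7%, 22.7% and 68.4% were.

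Large differences were few. More than 2-fold called differences from WT were seen for *Syne1* in TKO and in QKO mES cells (1 of 41 genes each, where 6.45% and 17.2% of all genes passed) and for *Syne3* in QKO EpiLCs (1 of 41, against 21.2%). In LBRKO cells of both stages and in TKO EpiLCs 0 genes of the set exceeded 2-fold at any p by edgeR, where 6.31%, 5.67% and 2.91% of all genes did so with an adjusted p under 0.05. Shares past 2-fold are over all genes tested and were not taken for genes over 8 CPM, which changed less. Their median absolute log2 fold change was 0.22 in QKO mES cells and 0.328 in QKO EpiLCs, against 0.395 and 0.491 for all genes. Over the 6 comparisons of a mutant with WT, which share the WT libraries of a stage, 12 of the 41 genes were called in 1, 13 in 2, 10 in 3 and 5 in 4 or more. Of all 23399 genes 23.6%, 21.4%, 15.5% and 16% were so called, and of those over 8 CPM 19.8%, 22.6%, 21% and 25.6%. The 5 were *Lemd2*, *Lemd3*, *Nup43*, *Seh1l* and *Nup88*. The genes with no call were the basket gene *Tpr* and *Nup58*, which was not tested there.

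**Figure D2:**
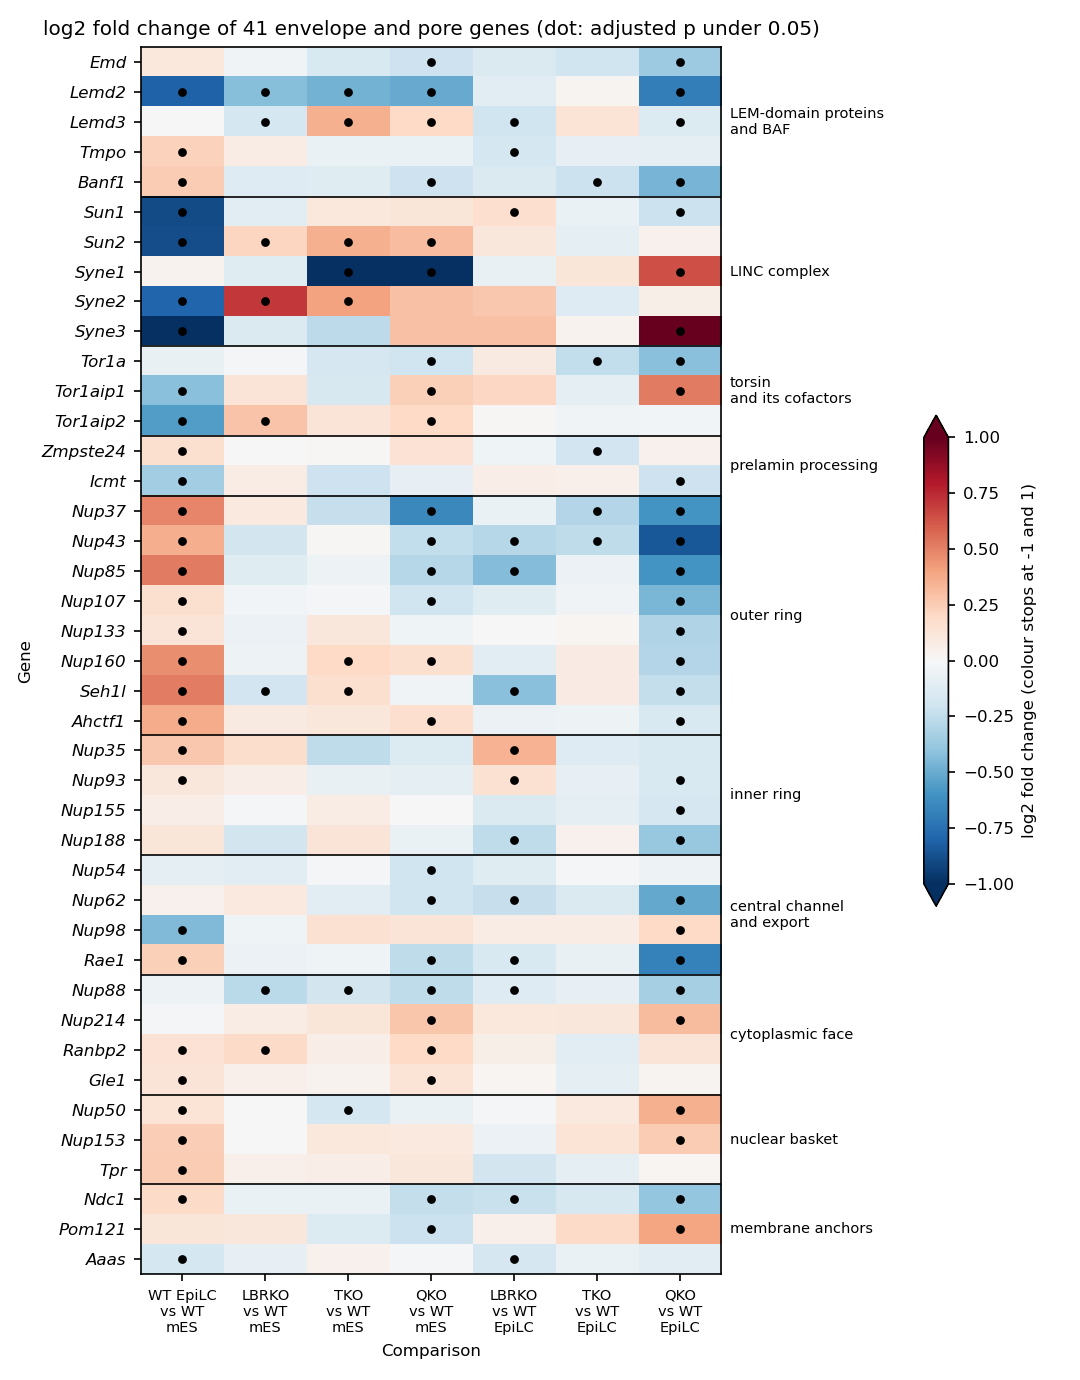
Heat map of log2 fold changes of 41 genes (rows, grouped by class) in WT EpiLCs against WT mES cells and in 6 comparisons of a mutant with WT of the same stage (columns), with a dot for an adjusted p under 0.05. Colour stops at -1 and 1, and lies past these limits for *Syne1* in TKO and QKO mES cells (-1.03 and -1.07) and for *Syne3* between the stages (-2.48) and in QKO EpiLCs (2.13).

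Of the LINC complex, the giant nesprin gene *Syne1* was lower in lamin-deficient mES cells. It was at 5.80, 6.87 and 9.23 CPM (lowest, median and highest) in WT mES cells and at 6.26, 6.35, 7.39 and 7.36 CPM in LBRKO. In TKO mES cells the 4 libraries were at 3.01, 4.32, 3.24 and 4.06 CPM, and in QKO mES cells at 3.02, 2.61, 4.83 and 3.77 CPM. All 8 lamin-deficient libraries lay below every WT and LBRKO library of that stage. *Syne1* fell in TKO (-1.03 ± 0.16, adjusted p = 2.11e-06) and in QKO (-1.07 ± 0.16, adjusted p = 4.09e-07), and the difference between QKO and TKO was -0.04 ± 0.18. With WT replicates 1 to 4 alone as the control the change was -0.83 in TKO and -0.87 in QKO, under 2-fold, and still passed. It also came under 2-fold in TKO without TKO replicate 1 or 3 or WT replicate 6 or 7, and in QKO without QKO replicate 1 or 2.

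In EpiLCs *Syne1* differed from WT by 0.12 ± 0.15 in TKO, which did not pass (adjusted p = 0.657), and was higher in QKO. WT EpiLCs were at 5.81, 7.81 and 8.77 CPM, LBRKO EpiLCs at 5.97, 5.98, 10.3 and 6.77 CPM, TKO EpiLCs at 8.83, 7.85, 7.53 and 8.96 CPM and QKO EpiLCs at 10.4, 11.5, 13.0 and 13.0 CPM. QKO libraries lay above all WT and TKO libraries of the stage. *Syne1* rose in QKO EpiLCs against WT (0.65 ± 0.14, adjusted p = 0.00015) and against TKO (0.53 ± 0.17, adjusted p = 0.00938). Its change between the stages was 0.04 ± 0.12 in WT. It exceeded the WT change by 1.15 ± 0.21 in TKO (adjusted p = 0.00017) and by 1.72 ± 0.21 in QKO (adjusted p = 1.49e-08). In TKO that excess was 0.98 with WT replicates 1 to 4 and 1.28 with WT replicates 5 to 8, and it passed with each.

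*Syne3*, which encodes a smaller nesprin that binds the linker protein plectin, had the largest change of the set between the stages. It was at 1.48, 2.15 and 2.46 CPM in WT mES cells and at 0.147, 0.366 and 0.859 CPM in WT EpiLCs, and it fell by 2.48 ± 0.24 on the log2 scale (adjusted p = 5.23e-12). In LBRKO EpiLCs it was at 0.591, 0.639, 0.355 and 0.277 CPM and in TKO EpiLCs at 0.618, 0.249, 0.268 and 0.424 CPM. In QKO EpiLCs it was at 1.48, 1.66, 1.64 and 1.85 CPM, from 41 to 66 counts per library, above every other EpiLC library. The rise in QKO EpiLCs was 2.13 ± 0.28 against WT (adjusted p = 2.30e-08) and 2.10 ± 0.36 against TKO (adjusted p = 6.53e-06). It exceeded the sum of the LBRKO and TKO changes by 1.80 ± 0.48 (adjusted p = 0.00421). QKO mES cells were at 1.75, 2.45, 3.18 and 2.95 CPM, which overlapped with WT, and the difference there was 0.29 ± 0.26 (adjusted p = 0.377). In bulk RNA, fewer cells of a type and less RNA per cell cannot be told apart.

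*Syne2*, another giant nesprin gene, was higher in LBRKO mES cells, but its WT libraries fell into separate ranges. WT replicates 1 to 4 were at 50.6 to 67.8 CPM and WT replicates 5 to 8 at 90.4 to 102 CPM. LBRKO mES cells were at 134, 129, 131 and 116 CPM, above both ranges, and *Syne2* rose in them (0.70 ± 0.12, adjusted p = 1.81e-05). The rise was 1.11 with WT replicates 1 to 4 and 0.39 with WT replicates 5 to 8 as the control, and passed with each. TKO mES cells were at 103, 97.7, 98.8 and 116 CPM and overlapped with WT. Their difference of 0.41 ± 0.12 passed against all WT libraries (adjusted p = 0.014), but against WT replicates 5 to 8 it was 0.09 (adjusted p = 0.477). In QKO mES cells *Syne2* was at 87.4, 97.4, 116 and 83.6 CPM. Its difference of 0.29 ± 0.12 missed the threshold against all WT libraries (adjusted p = 0.0501), was 0.70 against WT replicates 1 to 4 (adjusted p = 2.95e-07) and -0.02 against WT replicates 5 to 8 (adjusted p = 0.866). The QKO change lay below the sum of the LBRKO and TKO changes (-0.82 ± 0.19, adjusted p = 0.00136). That departure was -1.22 with WT replicates 1 to 4, past 2-fold, and -0.50 with WT replicates 5 to 8, and it passed with each.

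The SUN proteins anchor nesprins from the inner membrane. *Sun2* was at 22.2, 24.9 and 29.0 CPM in WT mES cells, at 29.0, 35.9, 33.4 and 31.8 CPM in TKO and at 30.2, 33.3, 33.2 and 29.0 CPM in QKO. It rose in TKO (0.36 ± 0.08, adjusted p = 0.000917) and QKO mES cells (0.31 ± 0.08, adjusted p = 0.00212). In LBRKO mES cells the difference was 0.21 ± 0.08 (adjusted p = 0.0494) and was lost in 16 of 20 alternatives. *Sun1* was at 161, 174 and 184 CPM in WT mES cells, and no mutant passed against WT at that stage. *Sun1* (-0.90 ± 0.04), *Sun2* (-0.89 ± 0.07) and *Syne2* (-0.80 ± 0.10) fell between WT mES cells and WT EpiLCs. In EpiLCs *Sun1* was at 86.5, 93.7 and 96.9 CPM in WT, at 106, 113, 101 and 98.1 CPM in LBRKO (0.17 ± 0.05, adjusted p = 0.0124) and at 71.8, 76.8, 84.2 and 88.1 CPM in QKO (-0.21 ± 0.05, adjusted p = 0.000708). The LBRKO call was lost with WT replicates 5 to 8 (0.15, adjusted p = 0.0721) and without LBRKO replicate 2.

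**Figure D3:**
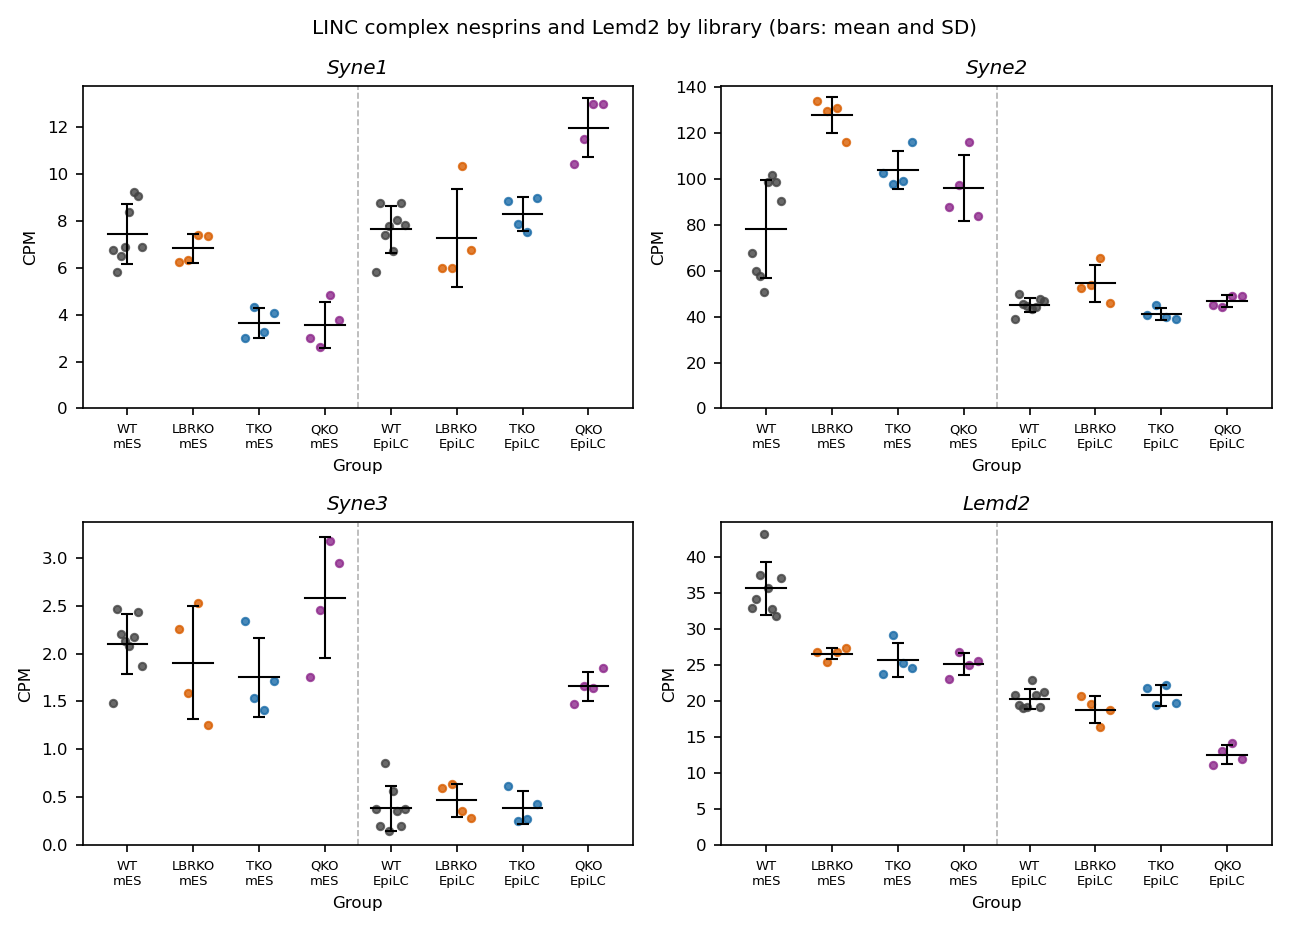
CPM of *Syne1*, *Syne2*, *Syne3* and *Lemd2* in each library, by group, with mean and SD (8 WT libraries and 4 of each mutant per stage, mES cells left and EpiLCs right of the dashed line). The 8 lamin-deficient mES libraries lie below WT for *Syne1*, WT mES libraries of *Syne2* split between 67.8 and 90.4 CPM, and QKO EpiLCs lie above the other EpiLCs for *Syne3* and below them for *Lemd2*.

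*Lemd2*, which encodes an inner membrane LEM protein that acts with the ESCRT machinery in sealing the envelope after mitosis, was lower in all mutant mES cells. It was at 31.8, 35.0 and 43.2 CPM in WT mES cells, at 26.8, 25.4, 26.7 and 27.4 CPM in LBRKO, at 23.8, 29.2, 25.3 and 24.6 CPM in TKO, and at 23.1, 26.9, 25.0 and 25.5 CPM in QKO. All 12 mutant libraries lay below all 8 WT libraries. The change was -0.42 ± 0.08 in LBRKO (adjusted p = 2.88e-05), -0.47 ± 0.08 in TKO (adjusted p = 6.30e-06) and -0.51 ± 0.08 in QKO (adjusted p = 6.25e-07), and it passed in every alternative. The QKO change lay above the sum of the LBRKO and TKO changes by 0.39 ± 0.11 (adjusted p = 0.0129).

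In EpiLCs *Lemd2* passed in QKO and in no other mutant. WT EpiLCs were at 19.01, 20.1 and 22.9 CPM, LBRKO EpiLCs at 20.6, 19.5, 16.3 and 18.8 CPM, TKO EpiLCs at 21.8, 19.4, 22.2 and 19.7 CPM, and QKO EpiLCs at 11.1, 13.1, 14.1 and 11.9 CPM. QKO libraries lay below all others. QKO differed from WT by -0.69 ± 0.08 (adjusted p = 8.75e-10), from TKO by -0.72 ± 0.09 (adjusted p = 1.36e-08), and from the sum of the LBRKO and TKO changes by -0.61 ± 0.12 (adjusted p = 9.64e-05). In WT cells *Lemd2* fell by 0.81 ± 0.06 on the log2 scale between the stages.

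The class also holds *Lemd3*, *Banf1*, *Emd* and *Tmpo*. *Lemd3*, encoding MAN1, an inner membrane antagonist of SMAD signalling, was at 45.2, 51.3 and 55.2 CPM in WT mES cells and at 68.3, 65.9, 60.3 and 68.6 CPM in TKO, with no overlap, and rose there (0.36 ± 0.05, adjusted p = 1.06e-06). It rose in QKO mES cells (0.20 ± 0.05) and was lower in LBRKO cells of both stages (-0.18 ± 0.05 and -0.20 ± 0.05). In LBRKO mES cells this call was lost with WT replicates 5 to 8 (-0.14, adjusted p = 0.102). Without the filter on low counts all 3 of these calls were lost, and the LBRKO EpiLC call also with only the groups compared. *Banf1* was at 238, 264 and 313 CPM in WT EpiLCs and at 181, 195, 203 and 204 CPM in QKO EpiLCs, with no overlap, and fell (-0.47 ± 0.06, adjusted p = 3.96e-08). In TKO EpiLCs it was called lower (-0.21), which was lost in 5 of 20 alternatives, WT replicates 1 to 4 among them. *Emd*, encoding emerin, fell in QKO EpiLCs too (-0.36 ± 0.08), from 92.5 to 119 CPM in WT to 78.4 to 85.8 CPM. *Tmpo*, encoding LAP2, passed in LBRKO EpiLCs (-0.18 ± 0.05) and was lost in 2 of 20 alternatives, and in QKO EpiLCs its difference was -0.09 ± 0.05.

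Among genes for torsin and its cofactors, *Tor1aip1* (LAP1, an inner membrane activator of torsin) was higher in QKO. It was at 12.7, 15.8 and 19.8 CPM in WT EpiLCs, at 11.7, 15.0, 15.6 and 15.8 CPM in TKO and at 22.6, 21.4, 21.2 and 23.5 CPM in QKO EpiLCs, and QKO overlapped with neither. The rise was 0.52 ± 0.09 against WT (adjusted p = 1.11e-05) and 0.61 ± 0.11 against TKO (adjusted p = 2.58e-05). In mES cells it rose against TKO (0.40 ± 0.11, adjusted p = 0.00787), while the difference from WT (0.24 ± 0.09, adjusted p = 0.0402) was lost in 9 of 20 alternatives. *Tor1a*, the torsin ATPase itself, was lower in QKO EpiLCs (-0.42 ± 0.08). It was also called lower in TKO EpiLCs (-0.24), which was lost in 12 of 20 alternatives, WT replicates 1 to 4 among them. *Tor1aip2* (LULL1) was higher in LBRKO mES cells (0.29 ± 0.06, adjusted p = 0.000493), at 226, 213, 251 and 258 CPM against 166, 191 and 231 CPM in WT, with overlap. Of the genes whose enzymes mature prelamin A, *Zmpste24* passed in TKO EpiLCs (-0.19 ± 0.06) and *Icmt* in QKO EpiLCs (-0.21 ± 0.08). These calls were lost in 12 of 20 and 11 of 20 alternatives, WT replicates 1 to 4 as the control among them.

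The 8 genes classed here as outer ring all passed, each time in a single direction, between the WT stages and in QKO EpiLCs. All 8 rose between WT mES cells and WT EpiLCs (median 0.42, where 36.9% of the genes over 8 CPM were higher). All 8 were lower in QKO EpiLCs than in WT EpiLCs (median -0.38, where 50.2% of those genes were lower). Of the 8, *Ahctf1* fell by less than the median of genes over 8 CPM (-0.19). Its call was lost in 5 of 20 alternatives, WT replicates 1 to 4 among them. These comparisons share the 8 WT EpiLC libraries. Against TKO EpiLCs 7 of the 8 were lower in QKO (39.6% of the genes over 8 CPM were). In TKO EpiLCs 2 of the 8 were lower than in WT, *Nup37* and *Nup43*. Each of these calls was lost in 7 of 20 alternatives, among them the fit without TKO replicate 1 and the fit with WT replicates 1 to 4 (-0.14, adjusted p = 0.334, and -0.17, adjusted p = 0.206). In QKO EpiLCs 8 of 8 passed when any single library was left out and 7 or 8 under the other alternatives, and between the stages 6 to 8 did. These counts depend on how the class was drawn. *Nup98*, classed here with the channel, and *Sec13*, listed outside the set, were not counted in it. *Nup98* moved the other way, called lower between the WT stages and higher in QKO EpiLCs.

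*Nup43*, of the Y complex, had the largest fall of the set in QKO EpiLCs. It was at 98.0, 109 and 133 CPM in WT EpiLCs, at 99.0, 93.3, 79.9 and 99.4 CPM in LBRKO, at 73.6, 99.1, 104 and 103 CPM in TKO, and at 55.2, 65.1, 64.6 and 66.5 CPM in QKO EpiLCs. The QKO libraries lay below all others. They differed from WT by -0.85 ± 0.08 (adjusted p = 1.94e-11) and from TKO by -0.59 ± 0.09 (adjusted p = 1.65e-06). In mES cells the difference of QKO from WT was -0.24 ± 0.08 (adjusted p = 0.0127), lost with WT replicates 5 to 8 (-0.23, adjusted p = 0.053) and without QKO replicate 2.

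*Nup85* was at 154, 165 and 186 CPM in WT EpiLCs and at 98.6, 113, 117 and 114 CPM in QKO EpiLCs (-0.60 ± 0.06, adjusted p = 8.12e-12). It was also low in LBRKO EpiLCs, at 136, 121, 113 and 126 CPM (-0.43 ± 0.06, adjusted p = 8.95e-08), where no library overlapped with WT. In QKO mES cells *Nup85* was called lower than WT by -0.29. *Seh1l*, whose product binds NUP85 in a short arm of the Y complex, was lower in LBRKO EpiLCs as well. It was at 194, 202, 199 and 196 CPM against 241, 264 and 282 CPM in WT (-0.42 ± 0.04, adjusted p = 9.27e-10), with no overlap. In QKO EpiLCs its difference was -0.24 ± 0.04, and in LBRKO mES cells it was -0.19. The change between the stages was smaller in LBRKO than in WT for *Nup85* (-0.31 ± 0.08, adjusted p = 0.00422) and for *Seh1l* (-0.23 ± 0.06, adjusted p = 0.00804), and the latter was lost with WT replicates 5 to 8 (-0.21, adjusted p = 0.0523) and without the filter. Summed naive markers (6 genes, 4 of them called higher and 1 lower) were at 195 to 295 CPM in LBRKO EpiLCs and 104 to 173 CPM in WT EpiLCs, and their part in these falls was not tested.

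*Nup37* was low in QKO at both stages. It was at 47.3, 49.4 and 60.3 CPM in WT mES cells, at 43.6, 44.7, 44.0 and 41.1 CPM in TKO and at 31.5, 32.5, 32.5 and 34.2 CPM in QKO mES cells, below both. The difference was -0.64 ± 0.09 from WT (adjusted p = 2.99e-07) and -0.41 ± 0.11 from TKO (adjusted p = 0.00415). QKO EpiLCs were at 42.8, 49.0, 47.8 and 48.9 CPM against 60.2, 67.2 and 89.1 CPM in WT (-0.60 ± 0.09, adjusted p = 5.66e-07). *Nup107*, of the stem of the Y complex, was at 176, 183 and 216 CPM in WT EpiLCs and at 134, 135, 141 and 139.8 CPM in QKO EpiLCs (-0.46 ± 0.05, adjusted p = 9.47e-10). *Nup160* was higher than WT in TKO and QKO mES cells (0.20 ± 0.05 and 0.16 ± 0.05) and lower in QKO EpiLCs (-0.30 ± 0.05), and both mES calls were lost without the filter. Its change between the stages differed from WT in QKO by -0.45 ± 0.07 (adjusted p = 2.98e-06).

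**Figure D4:**
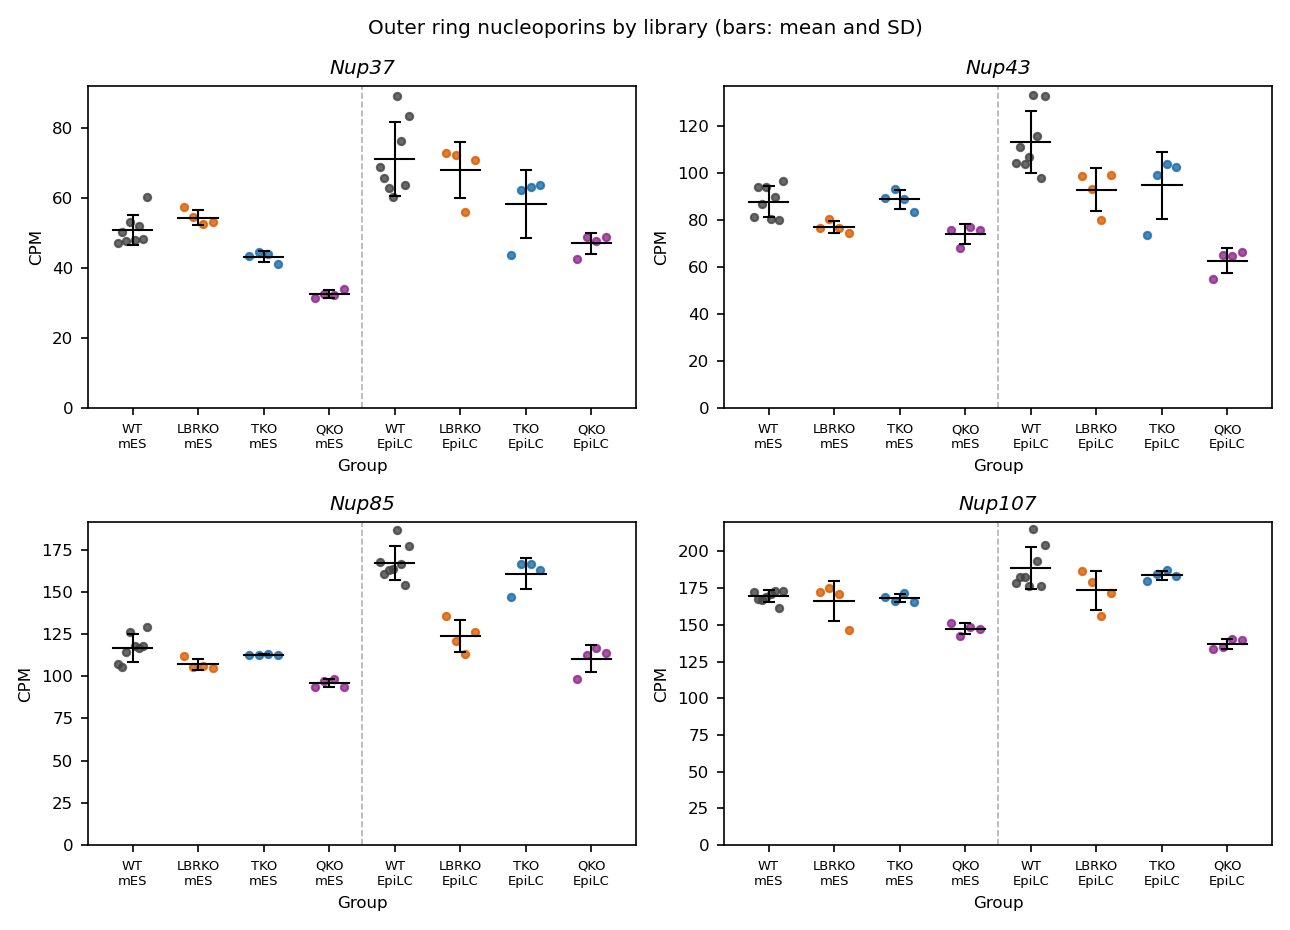
CPM of the outer ring genes *Nup37*, *Nup43*, *Nup85* and *Nup107* in each library, by group, with mean and SD. In all 4 panels the QKO EpiLC libraries lie below every WT EpiLC library, and for *Nup85* the LBRKO EpiLC libraries do so as well.

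Promoter windows are shown for genes that moved in opposite directions in QKO EpiLCs, *Nup107* and *Nup37* of the outer ring, which fell, and *Syne3*, which rose. Windows run from 250 bases before to 50 bases after a RefSeq start (GRCm38.p6), and 36 of the 42 genes matched 1 or more. Capitals mark matches on either strand to the NRF1 motif (GCGCA followed by its reverse complement, the same on both strands), CCGGAAG (an ETS motif), CCAAT and GGGCGG (the GC box).
Nup107 (chr10:117792656-117792955, minus strand): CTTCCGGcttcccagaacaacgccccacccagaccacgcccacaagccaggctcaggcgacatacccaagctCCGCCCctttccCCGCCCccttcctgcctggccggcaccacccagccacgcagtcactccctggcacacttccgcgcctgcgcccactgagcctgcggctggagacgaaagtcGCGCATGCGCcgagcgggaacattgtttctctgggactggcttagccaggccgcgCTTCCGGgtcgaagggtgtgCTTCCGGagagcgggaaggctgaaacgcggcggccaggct
Nup37 (chr10:88146742-88147041, plus strand): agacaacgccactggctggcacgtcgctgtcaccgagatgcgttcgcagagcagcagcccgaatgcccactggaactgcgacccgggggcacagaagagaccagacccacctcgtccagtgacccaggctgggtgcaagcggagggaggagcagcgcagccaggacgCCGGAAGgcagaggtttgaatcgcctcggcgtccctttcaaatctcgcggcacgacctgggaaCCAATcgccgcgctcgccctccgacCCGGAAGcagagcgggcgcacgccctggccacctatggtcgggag
Syne3 (chr12:104998628-104998927, minus strand): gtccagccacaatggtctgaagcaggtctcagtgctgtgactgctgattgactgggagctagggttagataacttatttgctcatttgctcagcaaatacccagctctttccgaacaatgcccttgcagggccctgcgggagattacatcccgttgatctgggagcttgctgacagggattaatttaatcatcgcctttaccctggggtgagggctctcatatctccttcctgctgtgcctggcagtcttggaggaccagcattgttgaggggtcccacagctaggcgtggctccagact
The *Nup107* window holds the NRF1 motif 65 bases before the start, 3 ETS motifs and 2 GC boxes. The *Nup37* window holds 2 ETS motifs and 1 CCAAT box, and the *Syne3* window none of the 4 motifs. In GRCm39 the *Syne3* window lies at 104964887 to 104965186, inside the gene, whose counted exons begin at 104976068 on the minus strand. Whether the start in this window gave the counted *Syne3* RNA was not tested. The NRF1 motif, found in 0.971% of all 32851 windows, was in 3 genes of the set, *Nup107*, *Nup62* and *Nup50*. Of these *Nup107* and *Nup62* fell in QKO EpiLCs and *Nup50* rose. The ETS motif was in 9 of the 36 genes (20.4% of their 49 windows, against 8.86% of all), the GC box in 25 (59.2% against 35.7%) and CCAAT in 16 (38.8% against 37.4%). Of the 5 outer ring genes with a window, the NRF1 motif was in 1, the ETS motif in 2, the GC box in 2 and CCAAT in 1. *Nup160* and *Ahctf1*, which also fell in QKO EpiLCs, held none of the 4 motifs, as was so for *Syne3*. Among the genes without a matched window were *Lemd2*, *Nup43* and *Nup85*.

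Of the 4 inner ring genes 3 were lower in QKO EpiLCs, where 50.2% of genes over 8 CPM were. *Nup188* fell in QKO EpiLCs (-0.38 ± 0.09, adjusted p = 0.000338), where it was at 326, 368, 426 and 390.0 CPM against 433, 487 and 545 CPM in WT, with no overlap. *Nup93* (-0.15 ± 0.06) and *Nup155* (-0.17 ± 0.06), which are scaffold proteins of the ring, were lower there by less than the median fall of genes over 8 CPM, and these calls were lost in 8 of 20 and 7 of 20 alternatives, WT replicates 1 to 4 among them. In LBRKO EpiLCs *Nup93* was called higher (0.15) and *Nup188* lower (-0.26). Those calls were lost in 10 of 20 and 6 of 20 alternatives, WT replicates 5 to 8 among them. *Nup35* was higher in LBRKO EpiLCs, at 82.7, 85.1, 72.0 and 87.8 CPM against 48.1, 60.2 and 81.3 CPM in WT (0.35 ± 0.10, adjusted p = 0.00807). The groups overlapped, and against WT replicates 5 to 8 the difference was 0.16 (adjusted p = 0.151). Counts of *Nup35* are uncertain, since *Dusp19* overlaps it on the same strand.

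Of the channel and export genes, *Rae1*, an mRNA export factor that binds NUP98, fell most. It was at 136, 147 and 157 CPM in WT EpiLCs, at 123, 151, 149 and 137 CPM in TKO and at 87.3, 92.6, 98.7 and 89.5 CPM in QKO EpiLCs, below both. The change was -0.68 ± 0.05 against WT (adjusted p = 8.93e-15) and -0.61 ± 0.06 against TKO (adjusted p = 1.65e-11), and it lay below the sum of the LBRKO and TKO changes (-0.45 ± 0.07, adjusted p = 9.66e-06). *Rae1* also fell in QKO mES cells (-0.25 ± 0.05). *Nup62*, a main FG protein of the channel, was at 303, 329.5 and 379 CPM in WT EpiLCs and at 208, 227, 248 and 246 CPM in QKO (-0.51 ± 0.07, adjusted p = 1.48e-07), with no overlap. *Nup98* was higher in QKO EpiLCs (0.20 ± 0.07), which was lost with WT replicates 5 to 8 (0.18), and *Nup54* did not pass there (-0.05 ± 0.05).

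On the cytoplasmic face *Nup88* fell in 5 of the 6 comparisons with WT, of which the call in LBRKO EpiLCs was lost in 11 of 20 alternatives, WT replicates 1 to 4 among them. It was at 168, 176 and 187 CPM in WT mES cells, at 143, 149, 148 and 146 CPM in LBRKO, at 158, 158, 156 and 151 CPM in TKO and at 158, 140.4, 142 and 149.8 CPM in QKO. All 12 mutant libraries lay below WT. The changes were -0.27 ± 0.05, -0.18 ± 0.05 and -0.26 ± 0.05. *Nup214*, whose product pairs with NUP88, moved the other way in QKO and rose in mES cells (0.28 ± 0.07, adjusted p = 0.00142) and in EpiLCs (0.32 ± 0.07, adjusted p = 0.00022). It was at 158, 179 and 196 CPM in WT EpiLCs and at 206, 219, 229.9 and 234 CPM in QKO EpiLCs, with no overlap. *Ranbp2*, whose reads may be shared with 12 annotated *Ranbp2* pseudogenes, was higher in QKO mES cells (0.20 ± 0.07) and *Gle1*, an mRNA export factor, was too (0.14 ± 0.05). Both calls were lost with WT replicates 5 to 8 (0.06 and 0.06), and in 2 of 20 and 7 of 20 alternatives in all. *Ranbp2* was also called higher in LBRKO mES cells (0.19), which was lost in 11 of 20 alternatives, WT replicates 5 to 8 among them.

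No basket gene was called lower in QKO EpiLCs. *Nup50* rose (0.35 ± 0.05, adjusted p = 8.78e-08), to 228, 220.2, 222 and 216 CPM from 164, 177 and 179.8 CPM in WT, with no overlap. Its change between the stages exceeded that of WT by 0.42 ± 0.07 (adjusted p = 7.43e-06). *Nup153* rose by 0.26 ± 0.09, and *Tpr*, the filament of the basket, differed by 0.02 ± 0.08 and did not pass. In TKO mES cells *Nup50* was called lower (-0.18), which was lost with WT replicates 1 to 4 and with a replicate block. Of the genes classed here with the membrane anchors (*Ndc1*, *Pom121* and *Aaas*), *Pom121* rose to 243, 239, 275 and 250.1 CPM in QKO EpiLCs from 164, 191 and 213 CPM in WT (0.39 ± 0.07, adjusted p = 6.97e-06), with no overlap. It was lower than WT in QKO mES cells (-0.22 ± 0.07, adjusted p = 0.0126), which was lost with WT replicates 1 to 4 (-0.14). *Ndc1* was lower in QKO at both stages (-0.24 ± 0.06 and -0.39 ± 0.06), and *Aaas* did not pass in QKO EpiLCs (-0.10 ± 0.05).

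**Figure D5:**
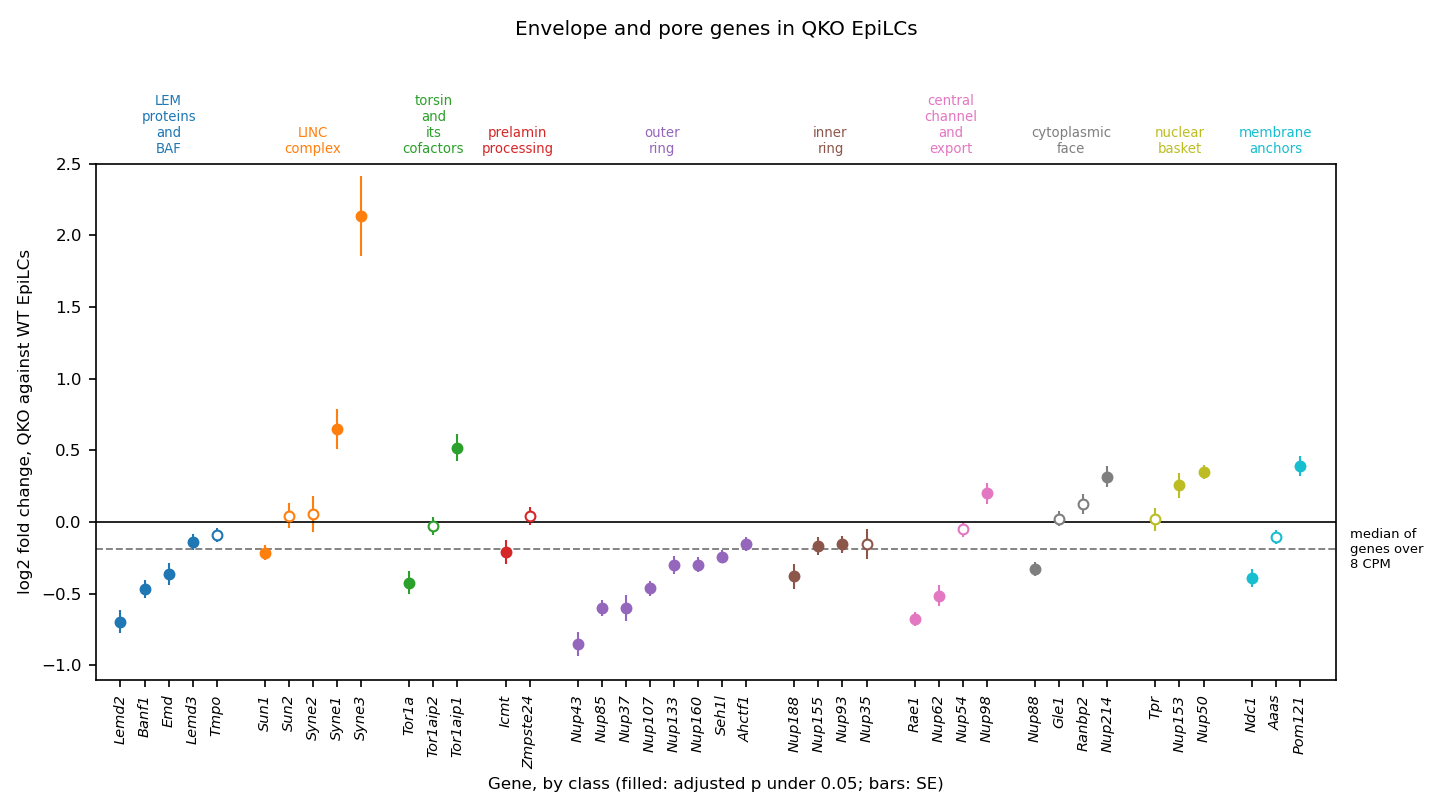
Log2 fold change in QKO against WT EpiLCs for 41 genes, by class, with SE (filled points have an adjusted p under 0.05, and the dashed line is the median of genes over 8 CPM, -0.19). All 8 outer ring genes lie below 0, from -0.85 for *Nup43* to -0.15 for *Ahctf1*, and the basket genes *Nup50* and *Nup153* lie above it.

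Between WT mES cells and WT EpiLCs 20 of 41 genes were higher and 10 lower, where 35.8% and 28.6% of all genes were. Pore genes made up 17 of the 20, with *Nup85* (0.52 ± 0.05), *Seh1l* (0.51 ± 0.04), *Nup37* (0.48 ± 0.07) and *Nup160* (0.47 ± 0.04) at the top. Envelope genes made up 8 of the 10 that were lower, and the others were *Nup98* and *Aaas*. More than 2-fold passed for *Syne3* alone, 1 of 41 genes against 31.1% of all. The change between the stages differed from WT in 7 genes of the set in LBRKO (15.5% of all genes), in 5 in TKO (8.44%) and in 18 in QKO (29.8%), of which 14 lay below WT. Among genes over 8 CPM it differed for 21.7%, 12.8% and 42.3%. By more than 2-fold it differed for 0 genes at any p in LBRKO by edgeR (6% of all genes passed), for *Syne1* in TKO (1 of 41 genes, against 3.03% of all) and for *Syne1* and *Syne3* in QKO (2 of 41, against 12.6%).

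Loss of LBR on the TKO background was compared by QKO against TKO. In mES cells *Tor1aip1* was higher (9.16% of all genes were) and 7 genes were lower (11.3%), among them *Nup37*, *Nup43*, *Nup85* and *Rae1*, and none of the set exceeded 2-fold at any p by edgeR (6.21% of all genes passed). The *Nup43* call was lost in 7 of 16 alternatives. Of genes over 8 CPM 29% were called in mES cells in either direction. In EpiLCs 8 were higher (18.9%) and 16 lower (39.0% of the genes tested, against 23% of all genes and 39.6% of those over 8 CPM). There *Syne3* exceeded 2-fold (1 of 41, against 15.3%). Without TKO replicate 1, 4 were higher. The QKO change departed from the sum of the LBRKO and TKO changes for 3 genes in mES cells (*Syne2*, *Nup37* and *Lemd2*, where 17.6% of all genes departed) and for 11 in EpiLCs (24.3%). Among genes over 8 CPM 25.2% and 37.7% departed. Of the 11, *Syne3*, *Syne1*, *Tor1aip1*, *Zmpste24* and *Nup50* lay above the sum and the other 6 below it. The calls of *Syne1*, *Tor1aip1* and *Zmpste24* were lost in 16 of 28, 17 of 28 and 6 of 28 alternatives, WT replicates 1 to 4 among them each time. More than 2-fold was reached by *Syne3* in EpiLCs (1 of 41, against 8.05%) and by 0 genes at any p in mES cells by edgeR (7.5%).

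Genes of the same compartments outside the set were counted as lists. Of 26 other envelope genes tested, 4 were higher and 14 lower in QKO EpiLCs, where 24.3% and 30.5% of all genes were, and 50.2% of those over 8 CPM were lower. The ones past 2-fold were *Tm7sf2* (-1.97 ± 0.14), a sterol reductase related to LBR, *Syne4* (-1.21 ± 0.12), a nesprin that binds kinesin, and *Tmem120a* (-1.05 ± 0.10). *Tm7sf2* was at 24.5, 30.1 and 44.2 CPM in WT EpiLCs and at 6.55 to 9.40 CPM in QKO, and it fell by more than 2-fold in QKO mES cells too (adjusted p = 2.16e-08). Of 12 other pore genes 4 were higher and 6 lower in QKO EpiLCs, so the share that was lower was near that of genes over 8 CPM. Of 31 genes for nuclear transport factors, 24 were higher in WT EpiLCs than in WT mES cells, against 35.8% of all genes and 36.9% of those over 8 CPM. In QKO against WT EpiLCs 18 of the 31 were lower and 4 higher.

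Other measures moved with the groups, and their part in these results was not tested. Summed primed markers (4 genes) were at 3150 to 3840 CPM in WT EpiLCs, 2523 to 2859 in LBRKO and 2205 to 2317 in QKO. In QKO the lower sum was that of *Dnmt3b* (-0.84 ± 0.11), the most abundant of the 4, while *Fgf5* was higher (0.31 ± 0.08) and *Otx2* and *Pou3f1* did not pass. Summed neural markers (5 genes) were at 305 to 336, 222 to 242 and 151 to 168 CPM in the same groups. Fibroblast markers (6 genes) summed to 18.6 to 24.1 CPM in WT and 9.89 to 10.3 CPM in QKO EpiLCs, with *Lum* and *Col3a1* under 1 CPM in every library. Trophectoderm markers (6 genes) summed to 85.2 to 90.4 CPM in LBRKO mES cells and 36.9 to 51.2 CPM in WT, with *Elf5* under 1 CPM. Primitive endoderm markers (7 genes) summed to 19.5 to 22.1 CPM in LBRKO mES cells and 8.47 to 10.2 CPM in WT, with *Foxa2* under 1 CPM. All 4 matched markers of 2-cell-like cells were called lower in every mutant at both stages, with *Tcstv3* under 1 CPM in every library. *Tcstv1*, also listed, matched no gene of the count table. Their sum was near the floor in WT mES cells, at 0.109 to 1.47 CPM. In EpiLCs the sum was at 6.67 to 9.93 CPM in WT, 0.332 to 1.09 in LBRKO, 1.61 to 2.30 in TKO and 1.01 to 1.961 in QKO. The share of mitochondrial counts was 0.93 to 1.76% in QKO EpiLCs and 0.51 to 0.80% in WT EpiLCs. By the study's karyotypes the TKO line carried an extra chromosome 8, and some WT cells carried extra chromosomes 6 and 8. The median change of 746 genes on chromosome 8, which holds *Nup93* and *Nup133*, was -0.03 in TKO cells of both stages. Genes on chromosome 6 had a median of 0.35 in LBRKO and -0.27 in QKO mES cells, and no gene of the set lies on it.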

How the data were processed

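Total RNA, depleted of ribosomal RNA and made into stranded Illumina libraries, was sequenced from 40 cultures, each a single well. After trimming with cutadapt 2.5, the authors aligned reads by STAR 2.7.10a against GRCm39, discarding any read with more than 1 alignment. They counted reads per gene with featureCounts 1.6.4, and the deposited count table holds these raw counts (22.6 to 48.9 M per library). Whether counting used strand is not given in the sources used here. Reads of a gene and its antisense partner may not be told apart. *Tor1aip1*, *Nup35*, *Ahctf1*, *Nup62* and *Nup58* overlap another gene on the same strand, and their counts are uncertain. The other deposited table of gene counts, in which the authors kept reads with several alignments, was used for *Nup58* and as an alternative, and counts over single repeat copies were not used.

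Counts of all 40 libraries were fitted in edgeR 4.0.16 (R 4.3.3) with 1 mean per group, filterByExpr, TMM scaling, the quasi-likelihood test and Benjamini-Hochberg adjustment over 23399 genes. Interaction contrasts of the same fit compared QKO with the sum of LBRKO and TKO changes, and changes between the stages with those of WT. The alternatives were RLE scaling, no filter, DESeq2 1.42.0, only the groups compared, either set of WT replicates, a replicate block, multimapped counts and leaving out each library. The script was tested on simulated data.

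The genes and gene lists were chosen with earlier results of these data known. Named with values were genes past 2-fold in a comparison or an interaction, in each comparison the 4 called genes with the largest rise and the 4 with the largest fall, the extremes per length, the targeted genes and, among the listed genes outside the set, those past 2-fold in a mutant against WT. Some of the values by which genes met this rule, among them several in QKO against TKO, are not printed. Other genes of the set were named after their values were seen, to complete each class. Promoter windows came from RefSeq (GRCm38.p6).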

Additional observations from a re-analysis of the deposited data

Results flagged for a closer look

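Among 25 genes named by rule, 14 of 200 groups of 4 to 8 libraries held a library far from the rest of its group, where chance alone would flag about 1 group in 20. TKO EpiLC replicate 1 was low for *Nup35* (50.84 CPM, the others at 61.07 to 62.2), *Nup37* (43.78, the others at 62.39 to 63.75), *Nup43* (73.58, the others at 99.11 to 103.9) and *Nup93* (264.6, the others at 299.7 to 303.6). QKO EpiLC replicate 1 was low for *Nup43* (55.18, the others at 64.6 to 66.49) and *Nup93* (251.9, the others at 283.1 to 287.7), so that replicate 1 was low for these genes in both genotypes, whose replicates 1 correlated at 0.281. QKO mES replicate 2 was low for *Nup43* (68.0, the others at 75.81 to 77.1). LBRKO EpiLC replicate 3 was low for *Banf1* (205.3 CPM, the others at 255.9 to 261.7) and *Nup37* (55.95, the others at 70.83 to 72.93). WT mES replicate 8 was high for *Nup37* (60.32, the others at 47.26 to 53.25) and *Tor1a* (41.44, the others at 29.57 to 34.05). *Tor1a* was low in TKO mES replicate 4 (27.65, the others at 30.2 to 30.52). *Nup85* was high in LBRKO mES replicate 1 (112.0, the others at 105.1 to 106.2) and in TKO mES replicate 3 (113.3, the others at 112.6 to 112.7), where the group as a whole spanned under 1 CPM.

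For the nesprin genes, effects differed between genotypes by more than 2-fold in interaction contrasts of edgeR. The rise of *Syne3* in QKO EpiLCs exceeded the sum of the LBRKO and TKO changes by 1.801 on the log2 scale. The change between the stages exceeded that of WT by 1.147 for *Syne1* in TKO, by 1.715 for *Syne1* in QKO and by 1.842 for *Syne3* in QKO.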

How the results depend on the processing

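Of 256 counts of genes under other settings, 214 lay within 1.5 times the reported count, none of 68 single-gene results reversed, and 18 of the 68 lost their call in 1 or more alternatives. Of 196 calls of the set over all comparisons, 89 were lost in 1 or more alternatives and 0 reversed. The other counts, given as genes higher or lower than WT unless said otherwise, were as follows, and the cause was not tested. Without the filter, 2 were higher in LBRKO mES cells, 3 higher and 7 lower in TKO mES cells, 2 higher in QKO mES cells, 4 lower in LBRKO EpiLCs, 0 lower in TKO EpiLCs and 13 higher between the stages. With DESeq2, 7 were lower in LBRKO mES cells, and 3 higher and 3 lower in TKO EpiLCs, where RLE scaling gave 2 and 3. With only the groups compared, 2 were higher in LBRKO mES cells, 5 higher and 11 lower in QKO against TKO mES cells, 3 lower in LBRKO EpiLCs, 2 higher and 0 lower in TKO EpiLCs, and 13 higher between the stages. With WT replicates 1 to 4, 9 were higher in LBRKO and in TKO mES cells, 7 higher and 7 lower in LBRKO EpiLCs and 0 lower in TKO EpiLCs, and genes past 2-fold were 1 in LBRKO mES cells, 0 in TKO and QKO mES cells, 1 in QKO against the summed changes in mES cells and 0 for the change between the stages in TKO. With WT replicates 5 to 8, 9 were lower in TKO mES cells, 5 higher in QKO mES cells, 1 higher in LBRKO EpiLCs, 9 lower in TKO EpiLCs and 2 past 2-fold between the stages. Replicate numbers were not taken as pairs, since no comparison had every same-numbered correlation over 0.1 (-0.255 to 0.451), although replicate 1 correlated at 0.229 to 0.304 in all 4 EpiLC comparisons and all 8 WT pairs across the stages were above 0. With a replicate block 7 were higher in LBRKO and 9 in TKO mES cells, 6 in LBRKO EpiLCs, 2 higher and 0 lower in TKO EpiLCs, and past 2-fold were 0 in TKO and QKO mES cells and 1 in QKO against the summed changes in mES cells. Leaving out each library moved 20 of 424 counts. Over these, LBRKO mES cells had 2 to 3 genes higher (2 without WT replicate 1 or without any LBRKO replicate), LBRKO EpiLCs 7 to 12 lower, TKO EpiLCs 0 to 2 higher and 1 to 6 lower, and QKO against TKO EpiLCs 4 to 8 higher. Past 2-fold, TKO and QKO mES cells had 0 to 1. In TKO EpiLCs without 1 library, 2 were higher without WT replicate 2 and 1 without WT replicate 7, and 1 was lower without WT replicate 5 or TKO replicate 1, 3 without WT replicate 6 or TKO replicate 2, and 2 without WT replicate 8. *Syne3* and *Syne1* had few counts, which limits their precision.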
